A study of Saccharomyces cerevisiae with 16 samples.

Results

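The late 40S maturation factors examined here are 10 budding yeast genes that act on the small ribosomal subunit around the casein kinase Hrr25: LTV1 (YKL143W), ENP1 (YBR247C), TSR1 (YDL060W), DIM1 (YPL266W), NOB1 (YOR056C), PNO1 (YOR145C), RIO2 (YNL207W), FAP7 (YDL166C), RIO1 (YOR119C) and TSR2 (YLR435W). They were chosen by identifier for their known role, not by a measured value, although earlier results of these data were known. All 10 were listed in each of 4 deposited comparison tables, which held 6834, 6258, 6760 and 6760 features.

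The study sequenced ribosomal RNA-depleted total RNA from 16 samples in 8 groups of 2. By the labels, every strain carried his3Δ, leu2Δ and ura3Δ and had the chromosomal HRR25 replaced by kanMX4, so the kinase came from a plasmid. WT cells carried HRR25 on pRS316, a URA3-marked plasmid; hrr25as cells carried the I82G allele on pRS315, a LEU2-marked plasmid; and hrr25is cells carried the I82G,I23C allele on pRS315. Cultures in YPD, held at 30 °C, received DMSO or an inhibitor for 1 h once their OD600 was 0.3: by titles and characteristics, WT and hrr25as cells in 1 set received 3MBPP1, and WT and hrr25is cells in another set received CMK. The treatment protocol in the labels names only DMSO and CMK for all samples, and the grouping follows the titles and characteristics. Whether replicates were separate cultures is not stated in the labels, and p-values therefore reflect sample-to-sample spread that may be technical.

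A 40S subunit leaves the nucleus as a precursor that still carries assembly factors and an unfinished 18S rRNA. Ltv1 and Enp1 sit with the ribosomal protein Rps3 at the beak of the precursor, and phosphorylation of both by Hrr25 releases Ltv1. Tsr1, Rio2 and the methyltransferase Dim1 occupy the subunit interface, and the nuclease Nob1 with its partner Pno1 waits at the 3′ end of the 18S rRNA until the final cut. Transcripts of assembly factors in yeast are known to change together with growth, and many of their promoters carry the motifs called PAC and RRPE.

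Those motifs stand close together before most of the 10 genes. The windows around them are printed for 6 factors, as examples of that arrangement, 5′ to 3′ on the strand of the gene, from the NCBI RefSeq sequence of R64, the assembly of sacCer3. Capitals mark every match in the window to the RRPE letters AAAAATTT, to the PAC letters GCGATGAG, or to the PAC core GATGAG, on either strand. The core is contained in the full PAC motif, so each full match is also a core match.
LTV1 (chrXI:176642-176690, plus strand): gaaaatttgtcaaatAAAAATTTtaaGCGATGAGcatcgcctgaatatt
ENP1 (chrII:714555-714605, minus strand): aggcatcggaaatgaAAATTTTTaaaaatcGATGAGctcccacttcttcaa
TSR1 (chrIV:341473-341530, plus strand): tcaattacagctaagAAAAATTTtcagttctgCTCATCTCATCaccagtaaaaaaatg
DIM1 (chrXVI:38946-39000, plus strand): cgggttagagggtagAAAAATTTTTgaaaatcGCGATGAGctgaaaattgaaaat
NOB1 (chrXV:431758-431827, minus strand): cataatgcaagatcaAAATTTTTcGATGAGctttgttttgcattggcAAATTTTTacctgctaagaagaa
RIO2 (chrXIV:255139-255185, plus strand): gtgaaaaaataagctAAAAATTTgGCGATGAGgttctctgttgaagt

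In the stretch from 250 bases before to 50 after the first base of each start codon, 9 of 10 factor genes held both the PAC core and the RRPE, against 338 of 6020 promoters (5.61%). The PAC core, with or without the RRPE, was present in 20.3% of all promoters. The RRPE, with or without the PAC core, was present in 14.1%. The full PAC occurred in LTV1, DIM1 and RIO2, and in 3.92% of all promoters. FAP7 was the exception among the 10, with neither motif in the window. In TSR2 the PAC core lay 18 to 23 bases after the first base of the start codon, not upstream. Both motifs together were found in 74.4% of 43 small subunit processome genes and 71.9% of 64 large subunit assembly genes, in 6 of 15 other late 40S pathway genes, and in 0 of 10 genes of 40S ribosomal proteins. A match describes these letters only and does not show that a factor binds there.

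**Figure D1:**
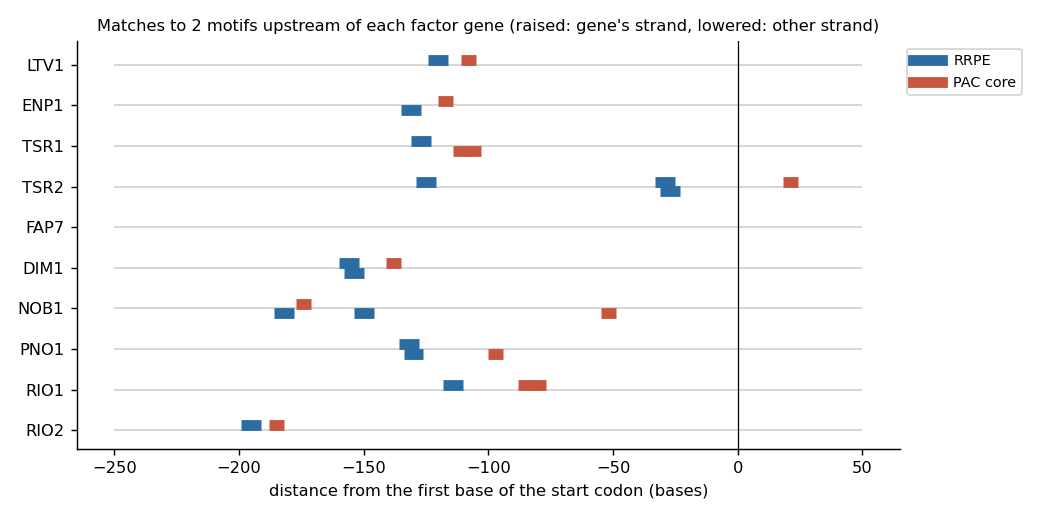
Position of RRPE (blue) and PAC core (red) matches relative to the first base of the start codon, in bases, for each of the 10 genes; raised marks are on the strand of the gene and lowered marks on the other strand. RRPE and PAC core lie upstream in 8 genes, TSR2 has its PAC core from 18 bases after the first base of the start codon and FAP7 has no match.

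In the R64 annotation none of the 10 genes overlaps another annotated gene. LTV1 is on chromosome XI, 176781 to 178172, plus strand. ENP1 is on chromosome II, 713004 to 714455, minus strand. TSR1 is on chromosome IV, 341619 to 343985, plus strand, and is transcribed away from the ribosomal protein gene RPS29B across 820 bp. TSR2 is on chromosome XII, 1006378 to 1006995, plus strand, and at 618 bp it is one of the shortest of the set.

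Each deposited table compares a condition A with a condition B, and neither the headers nor the labels say which of them is DMSO. Every change is therefore given as B relative to A. The deposited condition means were averages of whole reads divided by size factors, which allowed the reads of every library to be recovered. Values below are size-factor-normalised reads, with the library of the smaller size factor named first in each condition. Libraries held 4275991 to 34122412 counted reads, and the lowest count of any factor gene was 88 reads, for FAP7 in hrr25as, with a 95% Poisson interval of 70.6 to 108 that covers counting error only.

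Some libraries stood against their labels. The larger condition B library of the CMK table of hrr25is was identical at all 6760 features to the larger condition B library of the CMK table of WT, which leaves 15 distinct libraries. HRR25 in that library was 14975 normalised reads, against 12415 to 13657 in the other WT libraries of the CMK tables. The other hrr25is libraries had HRR25 at 2091 to 2519, URA3 at 43.3 to 114 and LEU2 at 1315 to 1961. The identical library had URA3 at 32168 and LEU2 at 8.68. It therefore carries the plasmid markers of the WT table. For CMK in hrr25is, the median log2 changes of factors and gene lists are given with and without it. The 4 libraries labelled WT in the 3MBPP1 table held LEU2 at 484 to 657 normalised reads together with URA3 at 1157 to 1333, although the labels give leu2Δ and a URA3 plasmid. They are called WT here only as labelled. HIS3 reads, 79.7 to 855, were present in every library, although all strains are labelled his3Δ.

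Before any comparison, the factor genes differed in level. Normalised reads per 1000 bases of gene were highest for PNO1 in condition A of all 4 tables, at 2157 and 2386 in the 3MBPP1 table of WT, and lowest for RIO1, at 366 and 435 there. In that table TSR2 was second, at 1393 and 1480, followed by DIM1, at 987 and 997. NOB1, ENP1, LTV1, FAP7 and TSR1 followed within 672 to 850, and each overlapped its neighbour in the order. RIO2, at 426 to 438, overlapped RIO1. In condition A of hrr25as TSR2 was sixth instead, at 357 and 369. The 3MBPP1 tables were normalised separately, and genes under 700 bp had a median log2 ratio of hrr25as over WT of -1.56, against -0.79 for longer genes. TSR2, at -1.98, and the 594 bp FAP7, at -1.78, are both under 700 bp; the part of gene length in their place in the order was not tested.

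In the 3MBPP1 table of WT, 2 of the 10 factor transcripts, ENP1 and TSR2, fell in condition B by the authors' deposited test at an adjusted p under 0.05, and 0 rose. Among all features 7.37% were called in either direction and 4.59% were called lower. The median log2 change of the 10 factors was -0.42, against -0.00 for all features. Both condition B libraries lay below both condition A libraries for 8 of 10 factors, a pattern seen at 26.7% of all features. Neither call remained when reads were scaled to library totals, with limma adjusted p = 0.420 for ENP1 and 0.433 for TSR2, or when either condition A library was left out.

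The beak pair comes first. ENP1, whose product anchors Ltv1 on the precursor, had 1061 and 1234 normalised reads in condition A and 642 and 809 in condition B. The groups did not overlap, and ENP1 fell by 0.66 on the log2 scale in the authors' deposited table, with adjusted p = 0.0133. A limma fit on the recovered reads gave -0.67 ± 0.15 (SE), with Benjamini-Hochberg adjusted p = 0.0415. LTV1, the other Hrr25 substrate, had 935 and 1063 in condition A and 679 and 796 in condition B. Its libraries were also separate, at a log2 change of -0.44, but the deposited adjusted p was 0.206 and the limma adjusted p 0.0993.

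The next factors help ribosomal proteins or sit at the subunit interface. TSR2, the escort of the ribosomal protein Rps26, had 861 and 915 in condition A and 565 and 563 in condition B. The condition B libraries lay close together and below both condition A libraries, and TSR2 fell by 0.65 on the log2 scale in the authors' deposited table (adjusted p = 0.0147; limma adjusted p = 0.0177). FAP7, an ATPase that works with Rps14, had 446 and 400.3 in condition A and 412 and 444 in condition B. These groups overlapped, at a log2 change of 0.02. TSR1, a GTPase-like protein that lacks GTPase activity, had 1599 and 1765 in condition A and 1160.3 and 1259.8 in condition B. Its groups did not overlap, with a log2 change of -0.48, a deposited adjusted p of 0.106 and a limma adjusted p of 0.0533.

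The factors that modify and cut the 18S rRNA had lower values in condition B without a deposited call. DIM1, the dimethyltransferase, had 945 and 954 in condition A and 626 and 700.4 in condition B, a log2 change of -0.52 with adjusted p = 0.103. It was called by limma, at adjusted p = 0.0407, the only factor called there and not in the deposited test. Limma called 8.41% of features in this table. NOB1, the nuclease of the final cut, had 1099.8 and 1108 in condition A and 760.0 and 922 in condition B, a log2 change of -0.39. PNO1, its KH-domain partner, had 1969 and 1779.8 in condition A and 1655 and 1537 in condition B, a log2 change of -0.23. Both were separated between conditions, and neither passed the test (deposited adjusted p = 0.328 and 0.663).

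The Rio ATPases, atypical kinases that act late on the precursor, had small log2 changes. RIO2 had 545 and 560.1 in condition A and 478 and 513 in condition B, and RIO1 had 533 and 633 in condition A and 472 and 534 in condition B. RIO1 overlapped between conditions and RIO2 did not. The log2 changes of RIO2 and RIO1 were -0.16 and -0.21, with deposited adjusted p = 0.868 and 0.75. When scaled to library totals they were 0.06 and 0.00, where the median of all features was 0.21. HRR25 itself, which the labels place on a plasmid, had 1718 and 1468 in condition A and 1688 and 1724 in condition B, which overlapped.

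**Figure D2:**
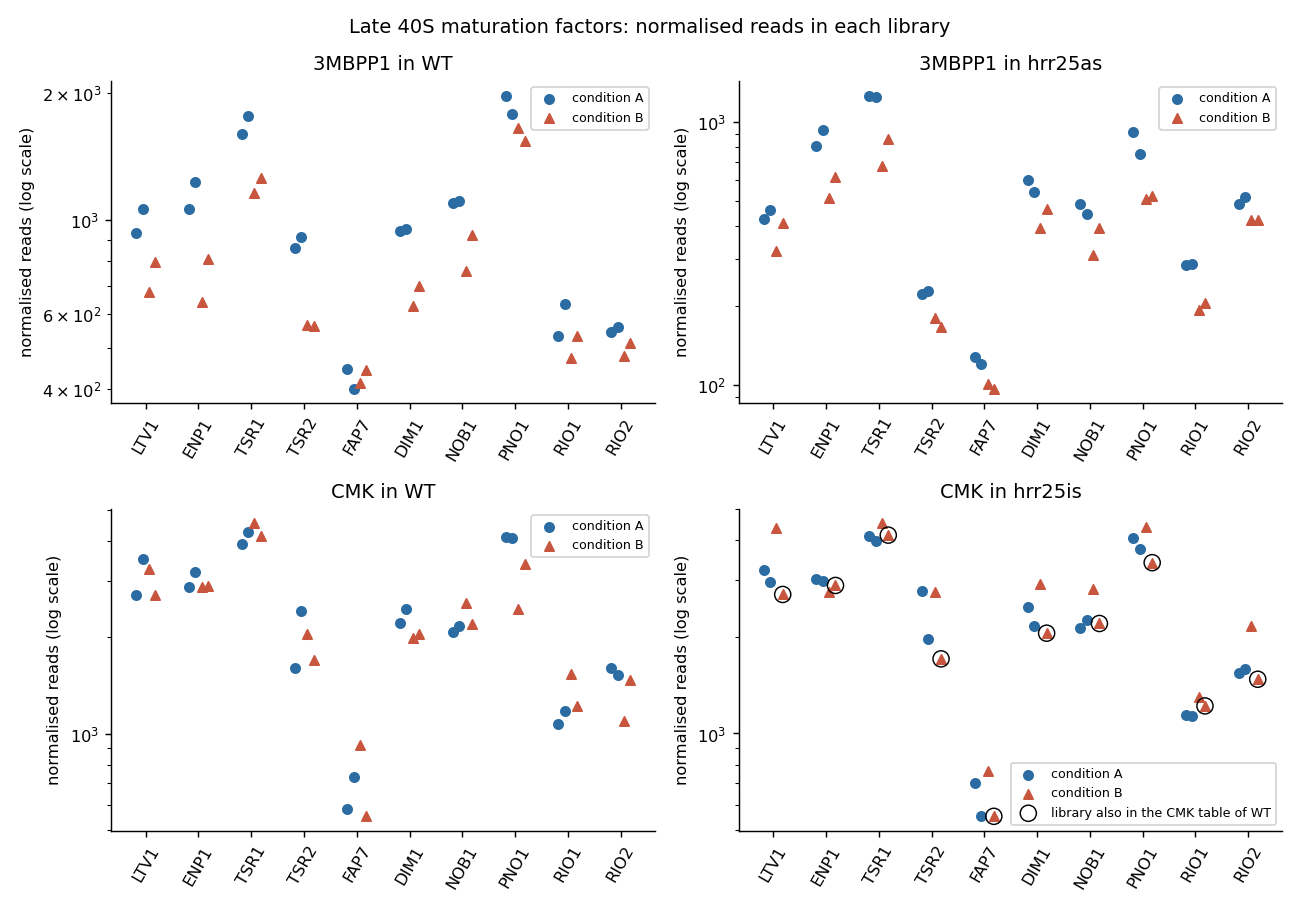
Normalised reads of each factor gene in each library on a log axis, with condition A as blue circles and condition B as red triangles; open rings mark the library that is also in the CMK table of WT. With 3MBPP1, 8 of 10 genes in WT and 10 of 10 in hrr25as have condition B entirely below condition A, against 26.7% and 23.9% of all features. With CMK in WT condition B is entirely below in 3 genes and above in 2, against 12.8% and 12.6% of features. With CMK in hrr25is it is below in 1 and above in 2, against 17.7% and 17.4%.

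In the 3MBPP1 table of hrr25as 0 of 10 factors passed the deposited test, in which 4.31% of features were called, and 3 had an unadjusted p under 0.05, as did 11.6% of features. Limma on the recovered reads also called 0 factors and 3.45% of features, with 4 factors and 18.6% of features at an unadjusted p under 0.05. All 10 factors had both condition B libraries below both condition A libraries, against 23.9% of all features. The median log2 change was -0.41, against 0.02 for all features, and -0.10 against 0.33 when scaled to library totals, where LTV1 (0.03) and RIO2 (0.07) had the opposite sign.

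TSR1, PNO1 and ENP1 had the largest log2 changes in hrr25as. TSR1 had 1254 and 1239.8 normalised reads in condition A and 678 and 862 in condition B, a log2 change of -0.70 with deposited adjusted p = 0.334. PNO1 had 917 and 753 in condition A and 510.1 and 519.5 in condition B, a log2 change of -0.70. ENP1 had 807 and 929.6 in condition A and 512 and 614 in condition B, a log2 change of -0.62. In each the higher condition B library still lay below the lower condition A library.

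The remaining factors had smaller log2 changes. LTV1 had 426 and 463 in condition A and 323 and 410.0 in condition B, which left a narrow gap at a log2 change of -0.28. RIO1 had 284 and 288 in condition A and 192 and 204 in condition B, with a log2 change of -0.53. RIO2 had 485 and 517 in condition A and 421 and 423 in condition B, with a log2 change of -0.25. The pair of Rio ATPases therefore both lay lower in condition B, RIO1 by more.

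DIM1 had 602 and 541 in condition A and 393 and 464 in condition B, with a log2 change of -0.42. NOB1 had 486 and 445 in condition A and 311 and 393 in condition B, with a log2 change of -0.40. Both rRNA enzymes kept their conditions apart. TSR2 had 221 and 228 in condition A and 179.6 and 165 in condition B, with a log2 change of -0.38, and FAP7 had 127 and 120.0 in condition A and 101 and 96.7 in condition B, with a log2 change of -0.32. FAP7 was the lowest counted factor in this table. Deposited adjusted p ranged from 0.334 to 1 over the 10 factors. HRR25 had 761 and 721 in condition A and 679 and 762 in condition B, which overlapped.

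**Figure D3:**
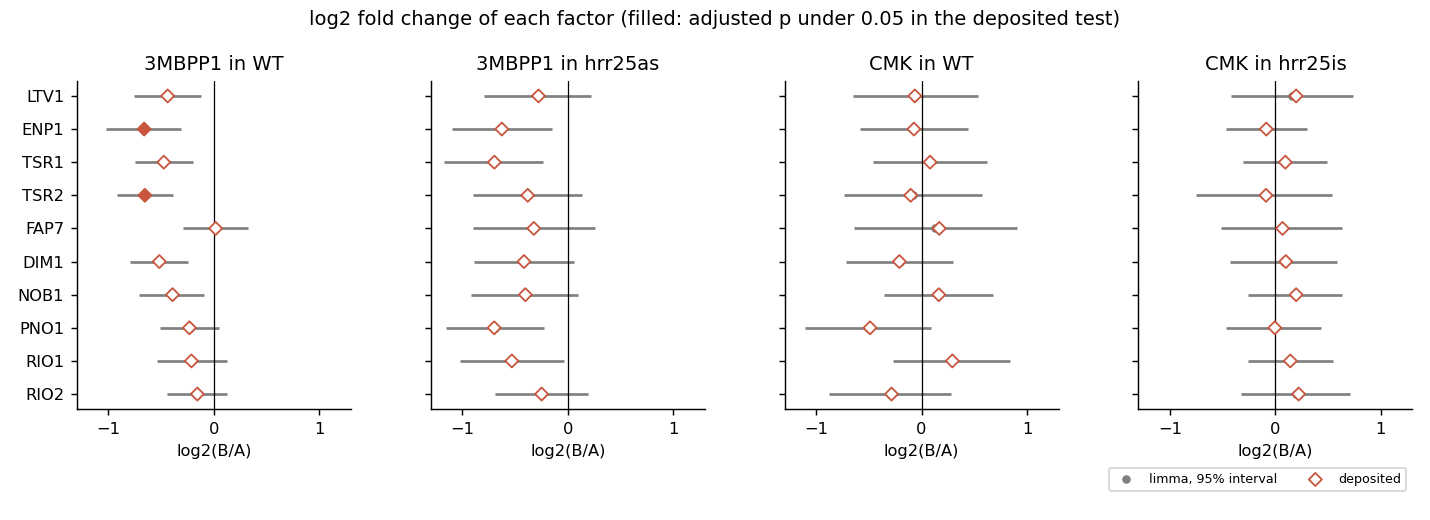
Log2 change of condition B over condition A for each factor in the 4 tables, from the authors' deposited table (diamonds, filled where the deposited adjusted p is under 0.05) and from limma (grey points with 95% intervals). ENP1 and TSR2 with 3MBPP1 in WT are the only filled diamonds.

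Whether the response to 3MBPP1 differed between the strains was tested directly, on the assumption that condition A stands for 1 treatment throughout. The difference of log2 changes, hrr25as minus WT, had a median of -0.05 over the 10 factors and -0.02 over all features. Limma called 0 of 10 factors at an adjusted p under 0.05, beside 6 of 6246 features (0.0961%). It had 0 factors and 684 of the 6246 features at an unadjusted p under 0.05. PNO1 had the largest difference, -0.46 (95% interval -0.95 to 0.03), followed by FAP7 at -0.34 (95% interval -0.89 to 0.21). For ENP1 the difference was 0.04 (95% interval -0.54 to 0.62) and for LTV1 0.15 (95% interval -0.41 to 0.72). Each of these intervals reaches past 0.5 in at least 1 direction, so a strain difference of that size could have gone undetected with 2 libraries per condition.

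In the CMK table of WT 0 of 10 factors were called by the deposited test or by limma. At an unadjusted p under 0.05 were 0 factors in either, beside 1.01% of features in the deposited test and 1.98% in limma. The background was low, with 0.133% of features called by the deposited test and 0 of 6760 (0.0%) by limma, so a count of 0 is no result about the factors. Condition B lay below condition A in 3 of 10 factors, against 12.8% of features, and above it in 2, against 12.6%. The median log2 change was -0.07, against 0.01 for all features. Its sign was not stable: it was -0.20 without the smaller condition A library, 0.14 without the larger one, -0.14 without the smaller condition B library and 0.06 without the larger one.

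PNO1 had the largest deviation with CMK in WT, 4135 and 4081 normalised reads in condition A and 2454 and 3401 in condition B, a log2 change of -0.49. DIM1 had 2227 and 2454 in condition A and 1994 and 2052 in condition B, a log2 change of -0.21, and RIO2 had 1609 and 1522 in condition A and 1096 and 1475 in condition B, a log2 change of -0.28. These were the 3 factors whose condition B libraries were both lower. RIO1 had 1072 and 1176 in condition A and 1534 and 1218 in condition B, a log2 change of 0.29, and NOB1 had 2084 and 2175 in condition A and 2571 and 2199 in condition B, a log2 change of 0.16, and in both of them condition B lay higher.

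The other 5 factors overlapped between conditions. LTV1 had 2718 and 3525 in condition A and 3264 and 2708 in condition B, and ENP1 had 2869 and 3193 in condition A and 2877 and 2889 in condition B. The beak pair thus had log2 changes of -0.06 and -0.07. TSR1 had 3929.7 and 4286 in condition A and 4547 and 4143 in condition B, TSR2 had 1605 and 2423 in condition A and 2044 and 1707 in condition B, and FAP7 had 582 and 733 in condition A and 925 and 552 in condition B. In FAP7 the condition B libraries stood further apart than the condition means did. The deposited adjusted p of all 10 factors was 1.

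With CMK in hrr25is 0 of 10 factors were called by the deposited test, in which 0.0444% of features were called. At an unadjusted p under 0.05 in that test were 0 factors and 2.28% of features. Limma called 0 factors and 0 of 6760 features (0.0%). It had 0 factors and 5.86% of features at an unadjusted p under 0.05. Condition B lay below condition A in 1 factor, against 17.7% of features, and above it in 2, against 17.4%. The median log2 change was 0.10, and -0.13 when the unshared condition B library was left out. These values include the library shared with the table of WT, which is the larger condition B library.

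LTV1 had 3218 and 2960.1 in condition A and 4373 and 2708 in condition B, so the unshared condition B library was the highest and the shared one the lowest of the 4. RIO2 had 1542 and 1583 in condition A and 2167 and 1475 in condition B, in the same arrangement. DIM1 had 2475 and 2159 in condition A and 2909.6 and 2052 in condition B and PNO1 had 4052 and 3758 in condition A and 4380.5 and 3401 in condition B, again with the unshared library highest and the shared one lowest. TSR1 had 4119 and 3985 in condition A and 4507 and 4143 in condition B, with both condition B libraries above condition A. RIO1 had 1145 and 1135 in condition A and 1297 and 1218 in condition B, also with both above. NOB1 had 2124 and 2257 in condition A and 2822 and 2199 in condition B, where the shared library fell between the condition A libraries. FAP7 had 703 and 553 in condition A and 764 and 552 in condition B, with only the unshared library above. TSR2 had 2769 and 1969.7 in condition A and 2748 and 1707 in condition B, with the unshared library inside the condition A range. ENP1 had 3015 and 2975 in condition A and 2754 and 2889 in condition B, the factor with both condition B libraries lower.

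Without the shared library, condition B of hrr25is rests on 1 library, which the fit assumes to vary like the others. The median log2 change of the factors was then 0.26, and 8 of 10 lay above both condition A libraries, against 39.9% of all features. Limma called 0 factors, and 12.8% of features. At an unadjusted p under 0.05 were 2 factors, beside 24.6% of all features. These were LTV1 and RIO2. LTV1 was at 0.50 ± 0.22 (SE), with adjusted p = 0.125, and RIO2 at 0.47 ± 0.21, with adjusted p = 0.138. ENP1 was at -0.12 ± 0.22, with adjusted p = 0.796.

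The CMK difference between strains, hrr25is minus WT, was fitted on the 7 distinct libraries and had a median of 0.26 over the factors and -0.04 over all features. That median moved with single libraries, to 0.47 without the smaller and 0.10 without the larger condition A library of WT, 0.44 without the smaller condition B library of WT, 0.14 without the shared library, and 0.45 without the smaller and 0.16 without the larger condition A library of hrr25is. Limma called 0 of 6760 features (0.0%), and 1 factor, RIO2, had an unadjusted p under 0.05, as did 5.53% of features. RIO2 differed by 0.77 (95% interval 0.04 to 1.50; adjusted p = 0.898). LTV1 differed by 0.56 (95% interval -0.20 to 1.32), PNO1 by 0.67 (95% interval -0.10 to 1.45) and ENP1 by -0.05 (95% interval -0.66 to 0.56).

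**Figure D4:**
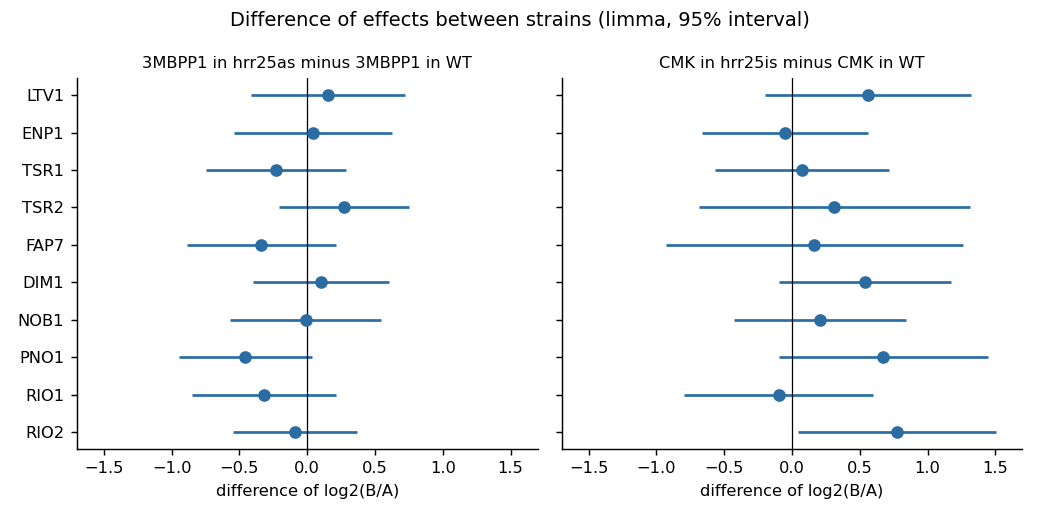
Difference of the log2 change between strains for each factor, hrr25as minus WT with 3MBPP1 and hrr25is minus WT with CMK, as limma estimates with 95% intervals. Every interval includes 0 except that of RIO2 with CMK, which starts at 0.04 and did not pass the adjusted test.

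Since both CMK tables share a scale, the condition A libraries of the strains could be set side by side. In 9 of 10 factors hrr25is and WT overlapped, and PNO1 lay lower in hrr25is, at a log2 ratio of -0.07. Across all features 44.4% did not overlap. The factor with the largest log2 ratio was TSR2, at 0.23. HRR25 transcript had a log2 ratio of -2.56 in the same libraries, and there the hrr25is libraries lay below both WT libraries.

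Within the beak pair, the ratio of LTV1 to ENP1 in normalised reads per 1000 bases, a pair chosen after values were seen and not tested, was 0.920 and 0.898 in condition A and 1.10 and 1.03 in condition B of the 3MBPP1 table of WT. In hrr25as it was 0.550 and 0.519 in condition A and 0.658 and 0.697 in condition B. The ratio was higher in condition B in both of these tables. With CMK in WT the conditions overlapped, at 0.988 and 1.15 in condition A and 1.18 and 0.978 in condition B. In the unshared condition B library of hrr25is with CMK it was 1.66, against 1.11 and 1.04 in condition A.

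The transcripts most like each substrate were found by Pearson correlation over the 15 distinct libraries, centred within each table, among 5448 features with a mean of at least 100 reads. Libraries of a table share scaling and condition, so these correlations are descriptions. LTV1 was most like JIP5 (0.945), FAF1 (0.943), SPB1 (0.940), RRP36 (0.932) and RRP3 (0.921). ENP1 was most like NOP56 (0.970), RRP5 (0.967), NOP13 (0.953), YLR363W-A (0.949) and DBP3 (0.945). Among the factors ENP1 was most like TSR1, at 0.905, and LTV1 most like NOB1, at 0.845. LTV1 and ENP1 correlated at 0.710, and FAP7 was the factor least like ENP1, at 0.217.

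The factors' neighbours in the pathway were listed with earlier results of these data known. Of 15 other late 40S pathway genes, among them HRR25, the 18S methyltransferase subunits BUD23 and TRM112, and the Rps3 chaperone YAR1, 0 were called in each of the 4 tables. Their median log2 changes were -0.37, -0.35, -0.11 and 0.03, for 3MBPP1 first in WT and then in hrr25as, followed by CMK first in WT and then in hrr25is. Of all features, the deposited test called 7.37%, 4.31%, 0.133% and 0.0444% in the same order. In the 3MBPP1 table of WT 4.59% of features were called lower. Of 43 small subunit processome genes, 15 fell with 3MBPP1 in WT and 0 were called in the other tables, with medians of -0.51, -0.48, -0.13 and 0.12. Of 64 large subunit assembly genes, 22 were called lower in condition B of the 3MBPP1 table of WT. In hrr25as 1 was called lower, and 0 were called with CMK. The medians of these 64 genes were -0.52, -0.51, -0.07 and 0.11.

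Without the shared library, the hrr25is medians with CMK were 0.09 for the other late 40S genes, 0.23 for the processome and 0.17 for large subunit assembly. Limma then called 1 of 15, 1 of 43 and 0 of 64 genes, against 12.8% of features. The called late 40S gene was RLI1, which encodes an ATPase of ribosome recycling, at -0.70 ± 0.23 (SE; limma adjusted p = 0.0249). The called processome gene was UTP25, at 0.64 ± 0.22 (limma adjusted p = 0.0353); it was named after its value was seen.

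The genes of 40S proteins that the factors escort or meet had lower medians than the factors. All 10 genes listed were called lower in condition B of the 3MBPP1 table of WT, and 9 of 10 in that of hrr25as. Of all features 314 of 6834 (4.59%) and 195 of 6258 were called lower there. The median log2 changes of the 10 genes were -1.37 and -1.52. RPS3, the partner of Ltv1 and Enp1, had 20242 and 18195 normalised reads in condition A and 6746 and 6366 in condition B in the table of WT. It fell by 1.55 on the log2 scale in the authors' deposited table, with adjusted p = 6.75e-16. In hrr25as RPS3 had 10836 and 10604 in condition A and 2049 and 2910.1 in condition B, and fell by 2.11 (adjusted p = 1.71e-08).

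RPS26B, which encodes the client of Tsr2, had 11584 and 10545 in condition A and 3296 and 3156 in condition B in the table of WT. It fell by 1.78 (adjusted p = 4.17e-20), against 0.65 for TSR2. Its paralog RPS26A fell by 1.27 (adjusted p = 1.79e-05), and RPS14A, which encodes the partner of Fap7, fell by 1.42 (adjusted p = 2.62e-07). RPS14A and RPS14B, RPS26A and RPS26B, and RPS10A and RPS10B are near-identical pairs that can share reads, so their values are uncertain as single genes.

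With CMK in WT 0 of the 10 ribosomal protein genes were called, beside 0.133% of features, at a median of -0.25. In hrr25is 0 were called by the deposited test, beside 0.0444% of features. At an unadjusted p under 0.05 in that test were 7 of the 10 and 2.28% of features, and the median was -0.77. Without the shared library the median was -1.13, on a lone condition B library, beside 0.26 for the 10 factors. RPS3 in that table had 41392 and 44295 in condition A and 12789.8 and 27831 in condition B, the last of these being the shared library.

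**Figure D5:**
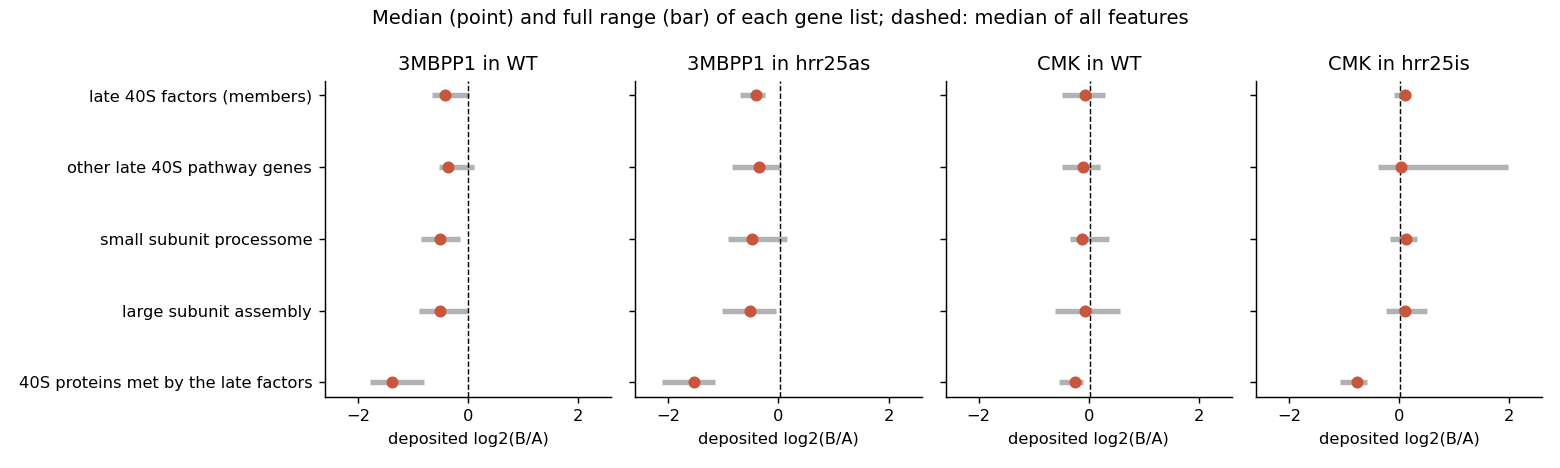
Median (point) and full range (bar) of the deposited log2 change of condition B over condition A for each gene list in the 4 tables, with the median of all features dashed. The 40S protein list is lowest in each panel, at -1.37, -1.52, -0.25 and -0.77, and the bar that reaches 1.98 with CMK in hrr25is is HRR25, whose log2 change is 0.19 without the shared library.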

How the data were processed

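The submitters' processing notes name STAR 2.3.0, HTSeq 0.6.0, CASAVA 1.8.2 and build sacCer3, with no role given. The authors deposited, per the file headers, a mean signal of normalised counts per condition, the fold change as a ratio of B over A, its log2, and p-values with adjusted p-values. The column names are those of DESeq, whose version the headers do not give. Whole reads per library were recovered from the condition means (100.0% of features, 1 solution each, tolerance 1e-09); recovery was tested on simulated data. Calls used the authors' adjusted p under 0.05. Alternatives used limma 3.58.1 in R 4.3.3 on log2(reads / size factor + 0.5) over the whole table, and differences between strains used its interaction term. Libraries held 4275991 to 34122412 reads.

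Named genes are all 10 factors, HRR25, genes of 2 lists called in any table, at most 8 per list and table, and the 5 transcripts most like LTV1 and ENP1; of the ribosomal protein genes so named, the text gives RPS3, RPS26A, RPS26B and RPS14A. The factors and lists were chosen with earlier results of these data known. A planned search of the factors' protein sequences was not run.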

Additional observations from a re-analysis of the deposited data

How the results depend on the processing

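With 3MBPP1 in WT, scaling to total reads left 0 factors and 5.33% of features called, and leaving out 1 library at a time gave 0 to 6 called factors. Without the smaller or the larger condition A library 0 factors were called, beside 1.93% and 3.01% of features, ENP1 having adjusted p = 0.105 and 0.230 and TSR2 0.104 and 0.142. Without the smaller condition B library 1 was called, TSR2, beside 8.87% of features, and without the larger one 6 were, beside 10.1%. With 3MBPP1 in hrr25as the range was 0 to 1, TSR1 being called without the larger condition B library (log2 -0.88, limma adjusted p = 0.0320) in a fit that called 8.09% of features. In both CMK tables and both strain differences 0 factors were called under every alternative run. With every library kept, the limma alternatives called 0.0% of features in both CMK tables and 0.0649% to 0.304% for the 3MBPP1 difference. A count of 0 factors in these fits is therefore no result about them. Each fit without a library in a single condition assumes that the lone library varies like the others. Total reads scaling moved the median of all features by 0.21, 0.31, 0.12 and 0.31 log2, and the factors' medians relative to it were -0.41, -0.43, -0.07 and 0.08. Of 600 single-gene values under alternatives, 536 kept their side of the threshold and direction, 7 lost and 9 gained a call, 48 changed sign without a call, and 0 reversed. No paired analysis was possible because the recovered libraries carry no replicate number. Limits: each condition has 2 libraries, condition A is not named as DMSO, and depth in hrr25as was the lowest.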
